A study of Mus musculus with 40 samples.

Results

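The 10 genes described here form the core of the mammalian circadian clock and its first output: *Arntl* (which encodes BMAL1), *Clock*, *Npas2*, *Per1*, *Per2*, *Per3*, *Cry1*, *Cry2*, *Nr1d1* and *Dbp*. They were chosen by name, by an exact match of each symbol in the count table, and all 10 of the 10 were found among its 20295 genes. All 10 also passed the filter on low counts, which kept 13277 genes. The choice used no measured value, although earlier results of these data were known when it was made. The data allow these genes to be compared between diets, between brown adipose tissue (BAT) that was activated or not, and between single mice of the same group.

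BAT of 40 male mice was measured by RNA sequencing of poly(A) RNA, in 8 groups of 5 adult animals, all housed at thermoneutrality on a light-dark cycle. In the first cohort, C-3BO mice carried a *Gpr3* transgene in the Rosa26 locus behind a CAG promoter and a lox-STOP-lox cassette, together with *Ucp1*-Cre, so that the constitutively active receptor GPR3 was made in brown and beige adipocytes. Their control littermates carried the transgene without Cre or Cre without the transgene, and both genotypes ate chow (chow control, chow C-3BO) or had eaten a high-fat diet for 7 days (HFD control, HFD C-3BO). In the second cohort, mice called wildtype in the sample labels and control littermates of a tamoxifen-inducible *Gpr3* line in the methods, were injected intraperitoneally each day for 9 days, shortly before the dark phase, with saline at 10 µL/g (chow saline, HFD saline) or with the β3-adrenergic agonist CL-316,243 at 1 mg/kg (chow CL, HFD CL). HFD in this cohort began after 2 days of injections, and tissue was taken on the day after the last one. The hour at which each mouse was sampled is not given in the sources used here. In every comparison of groups below, that hour therefore cannot be told apart from treatment, genotype or diet.

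The clock is a transcriptional feedback loop that runs in nearly every cell, brown adipocytes included. BMAL1 pairs with CLOCK or its relative NPAS2, binds E-box sequences and drives the genes of the PER and CRY proteins, which return to the nucleus and repress their own activators. A further loop runs through NR1D1 (REV-ERBα), a heme-binding repressor that is itself driven by E-boxes and that silences *Arntl*, and output runs through factors such as DBP, which binds D-box sequences. Levels of *Arntl* and *Npas2* therefore peak at about the time of day when those of *Dbp* and *Per3* are lowest, and *Per1* additionally responds to cAMP and to glucocorticoids.

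Library totals lay between 849126 and 15260516 counts, and the library with the lowest total was HFD saline replicate 4. The 10 brown adipocyte markers were counted in every library, with a summed level between 12889 and 34549 CPM (counts scaled to the library total after edgeR's TMM correction, here and throughout). *Gpr3* was at 266 to 918 CPM in the C-3BO mice and at 0 to 9.15 CPM in the other 30 mice, the highest of these being chow CL replicate 3, so that each library matched its label as C-3BO or not. It does not check CL against saline. *Ucp1* was at 1644 CPM in chow CL replicate 5, within the range of the chow saline mice. The other 4 chow CL mice were between 5943 and 8986 CPM, so by *Ucp1* alone this library goes against its CL label. Its *Cry1*, one of the genes compared below, was at 22.96 CPM, above the chow saline mice at 8.80 to 15.2 CPM. The library was kept in all reported fits and in the values of single mice below. Without chow CL replicate 5 the effect of CL on chow was 0.64 for *Cry1* and -0.92 for *Per1*, both still called. That for *Per2* was -1.11, no longer called (adjusted p = 0.0655 by edgeR). The 12 libraries of HFD saline, HFD CL and replicates 4 and 5 of HFD C-3BO held *Alb*, a liver transcript, at 62.2 to 294 CPM, and the other 28 libraries held at most 1.62 CPM. The same 12 held epididymis and testis markers at a sum of 6.02 to 41.2 CPM, and the other 28 at most 0.224 CPM. Totals were 849126 to 7284129 counts in the 12 and at least 7349348 counts in the other 28. Among injected mice, diet therefore cannot be told apart from library depth. The 8 skeletal muscle markers (*Acta1*, *Ckm* and others) summed to 685 to 8997 CPM in chow control mice, 348 to 3391 CPM in chow C-3BO mice, 4.82 to 187 CPM in HFD control mice and 5.26 to 65.1 CPM in HFD C-3BO mice. Among injected animals the sum was 9.74 to 2278 CPM with saline and 9.67 to 126 CPM with CL on chow, and 17.0 to 1792 CPM with saline and 27.0 to 595 CPM with CL on HFD. In bulk tissue, fewer cells of a type and less RNA per cell cannot be told apart.

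Promoter windows of RefSeq (GRCm38.p6, from 250 bases before to 50 bases after a transcript start) were matched for 9 of the 10 genes, in 13 windows, *Per2* being the one not matched. They were searched on both strands for the E-box CACGTG, for the D-box written as TTATGCAA, TTATGTAA or TTACGTAA, for the REV-ERB response element (RRE), and for the cAMP response element TGACGTCA. The E-box was found in 2 of the 13 windows and in 7.15% of all 32851 windows, and the D-box in 2 of the 13 and 1.78% of all. The RRE was found in 1 of the 13 and 0.384% of all, and the cAMP element in 0 of the 13 and 1.79% of all. By gene these were 2, 2, 1 and 0 of the 9. The sequences with a match are printed here with the motif in capitals because they are where the elements named above occur next to these genes. None of the printed matches overlapped another.
*Arntl*, RRE, just past the start, chr7:113207528-113207556, plus strand: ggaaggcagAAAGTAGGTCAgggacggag
*Per1*, E-box then D-box, upstream, chr11:69098743-69098948, plus strand: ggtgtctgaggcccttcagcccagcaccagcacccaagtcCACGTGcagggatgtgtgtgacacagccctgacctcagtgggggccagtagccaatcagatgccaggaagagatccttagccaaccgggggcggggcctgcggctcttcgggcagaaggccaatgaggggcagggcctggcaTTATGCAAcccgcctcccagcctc
*Per3*, D-box and D-box, upstream, chr4:151044776-151044910, minus strand: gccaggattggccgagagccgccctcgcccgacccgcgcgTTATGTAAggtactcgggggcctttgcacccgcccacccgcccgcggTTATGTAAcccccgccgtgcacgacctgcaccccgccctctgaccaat
*Cry1*, E-box, upstream, chr10:85185069-85185154, minus strand: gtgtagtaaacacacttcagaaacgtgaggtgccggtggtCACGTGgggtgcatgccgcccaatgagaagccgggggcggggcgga
*Tef*, E-box, upstream, chr15:81802506-81802591, plus strand: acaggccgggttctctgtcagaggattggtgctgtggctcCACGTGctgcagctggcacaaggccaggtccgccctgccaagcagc
*Bhlhe41*, E-box, upstream, chr6:145865528-145865613, minus strand: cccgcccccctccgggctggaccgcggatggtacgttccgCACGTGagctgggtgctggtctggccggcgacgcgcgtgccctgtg
*Tef*, a relative of *Dbp* in the PAR bZIP family, and *Bhlhe41*, a repressor that competes for E-boxes, are shown because their levels followed those of *Dbp* most closely across mice, as described below. A match is only a run of letters, and windows without one, such as those of *Clock*, *Npas2*, *Cry2*, *Nr1d1* and *Dbp*, say only that these letters are not within them.

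Per kilobase of exon, *Nr1d1* was the highest of the 10 at a mean of 123 RPKM over the 40 mice (range 71.8 to 178), followed by *Dbp* at 69.2 RPKM (14.0 to 158). *Cry2* at 24.7 RPKM, *Per3* at 22.4 RPKM, *Per1* at 11.2 RPKM and *Clock* at 8.05 RPKM came next. *Cry1* at 4.31 RPKM, *Per2* at 4.12 RPKM, *Arntl* at 2.86 RPKM and *Npas2* at 0.406 RPKM were lowest. The ranges of neighbours in this order overlapped. *Npas2* had 0 counts in 4 libraries, so its values rest on few reads. The exons counted as *Dbp* (NM_016974, chr7:52960617-52965573 in mm9, plus strand) lie in a span that shares 741 bases with *Sphk2* on the opposite strand, and whether counting used strand is not stated. Between groups, mean levels differed most for *Npas2*, which was 4.72 times as high in its highest group, chow CL, as in its lowest, HFD control. *Per1* ranged 2.99-fold, from chow C-3BO to chow saline, *Arntl* 2.94-fold, from HFD control to HFD CL, and *Per2* 2.78-fold, from chow CL to HFD control. The range was smallest for *Per3* (1.54-fold), *Cry2* (1.62-fold), *Clock* (1.70-fold) and *Nr1d1* (1.78-fold).

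**Figure D1:**
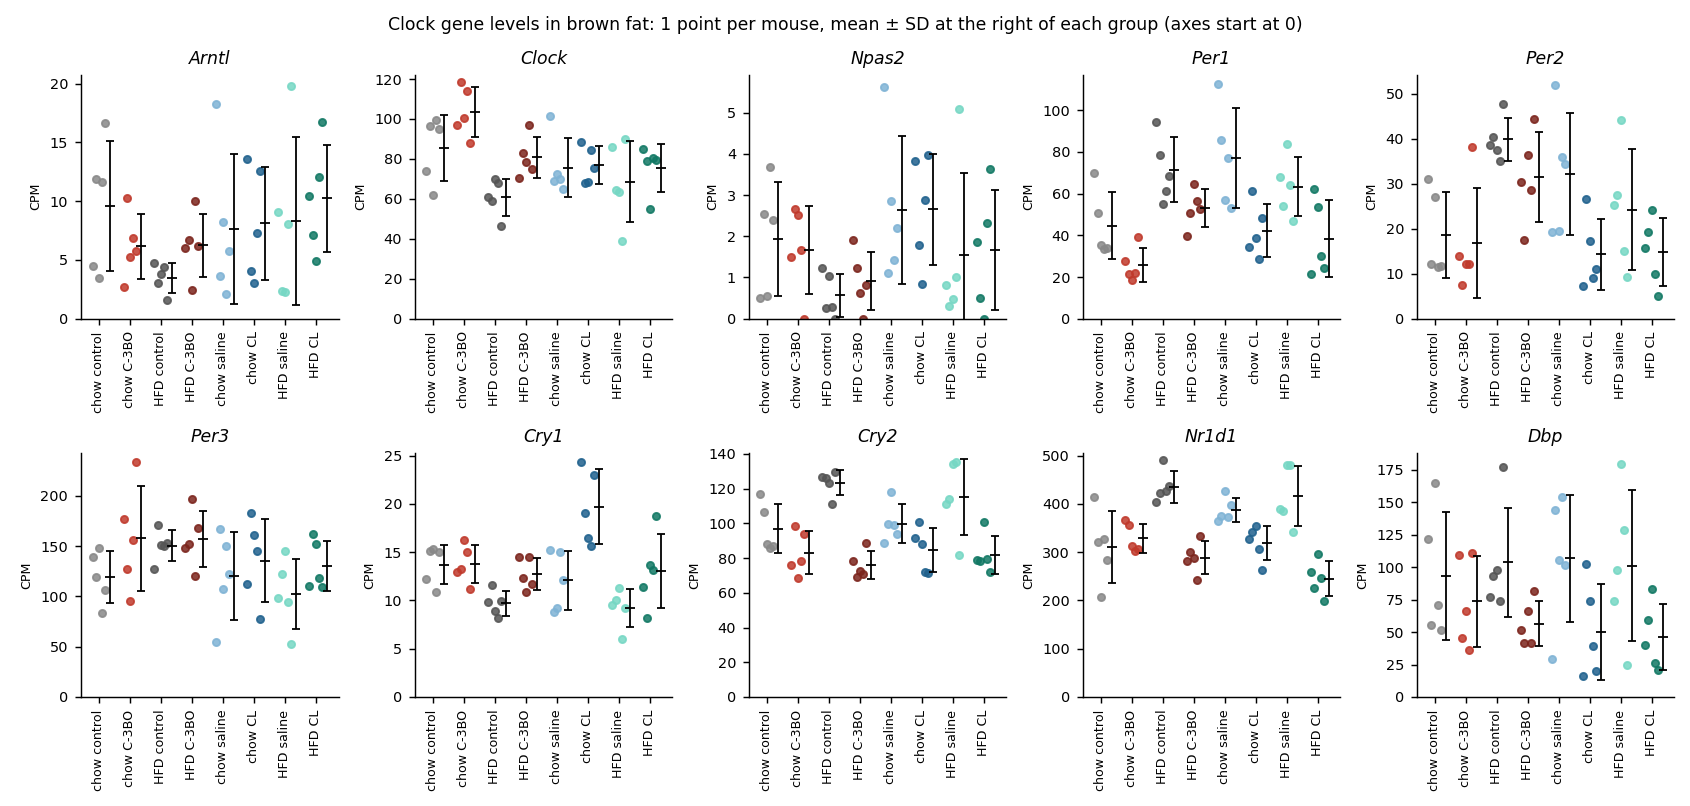
Level of each of the 10 clock genes in CPM (linear axes from 0) in 8 groups of 5 mice, with 1 point per mouse and, beside each group, the mean ± SD, whose lower end is cut off at 0 for *Npas2*. The 5 chow CL mice sit above the 5 chow saline mice for *Cry1*, and the HFD CL mice below the HFD saline mice for *Nr1d1*, while *Arntl*, *Npas2* and *Dbp* vary several-fold among mice of the same group.

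Chow CL mice had more *Cry1* and less *Per1* and *Per2* than chow saline mice. The activators *Arntl*, *Clock* and *Npas2* did not pass the test. Of the 10 genes, 3 passed an adjusted p of 0.05 in edgeR's quasi-likelihood test, beside 15.3% of all genes tested. *Cry1* (NM_007771, chr10:84594445-84647799 in mm9, minus strand), which encodes a strong repressor of CLOCK and BMAL1, was at 24.4, 19.1, 16.4, 15.6 and 22.96 CPM in chow CL replicates 1 to 5 and at 15.2, 8.80, 9.21, 15.01 and 12.2 CPM in chow saline replicates 1 to 5. Each CL mouse was above each saline mouse. The means were 19.7 ± 3.87 and 12.1 ± 3.07 CPM (SD, n = 5 each), a log2 fold change of 0.70 ± 0.17 (SE, adjusted p = 0.00316 by edgeR), and it passed an adjusted p of 0.05 in all 18 alternative fits and omissions, with log2 fold changes from 0.58 to 0.88, all short of a further threshold of 1.

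*Per1* (NM_011065, chr11:68912458-68923459, plus strand), the period gene that responds most quickly to outside signals, was at 34.5, 61.3, 38.7, 28.5 and 48.2 CPM with CL and at 112, 85.8, 56.9, 77.00 and 52.9 CPM with saline, replicates 1 to 5 in order. The groups overlapped through CL replicate 2, which lay above saline replicates 3 and 5. It fell by 0.87 ± 0.25 on the log2 scale (adjusted p = 0.0162), and the call was lost without chow saline replicate 1 (adjusted p = 0.0694) or without chow CL replicate 4 (adjusted p = 0.0631). *Per2* (NM_011066, chr1:93312559-93355905, minus strand), its partner in the repressor complex, was at 7.37, 26.7, 17.4, 9.15 and 11.05 CPM with CL and 19.3, 51.9, 19.5, 35.9 and 34.4 CPM with saline. It fell by 1.18 ± 0.39 (adjusted p = 0.0355), with an overlap between CL replicate 2 and the lower saline mice. This call was lost without any one of saline replicates 2, 4 or 5 or CL replicates 1, 4 or 5 (adjusted p from 0.0513 to 0.123) and with a skeletal muscle score as a covariate (log2 fold change -1.09, adjusted p = 0.0618). *Dbp* was at 15.9, 102, 73.8, 39.5 and 19.9 CPM with CL and 29.6, 144, 105, 153 and 102 CPM with saline, a log2 fold change of -1.10 ± 0.46 that did not pass (adjusted p = 0.101). The median log2 fold change of the 10 was -0.11, beside -0.01 over all genes tested. In the same comparison 7 of the 8 muscle markers fell, and with their score as a covariate *Cry1* (0.88, adjusted p = 0.000396) and *Per1* (-0.93, adjusted p = 0.0157) passed. With scaling by library totals alone, which shifted the median of all genes to -0.15, 5 of the 10 passed, *Cry2* and *Nr1d1* being added. Counts under alternative fits and omissions, here and below, are given without the share of all genes under the same fit.

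On HFD, CL mice had less *Nr1d1*, *Cry2* and *Per1* than saline mice. Again 3 of the 10 genes passed, beside 23.5% of all genes tested, and all 10 libraries belong to the 12 with *Alb*, so that this comparison lies within that set. *Nr1d1* (NM_145434, chr11:98629246-98636691, minus strand), the repressor of *Arntl*, was at 259.8, 226, 296, 246 and 199 CPM in HFD CL replicates 1 to 5 and 389, 385, 481, 481 and 342 CPM in HFD saline replicates 1 to 5. The groups did not overlap, the log2 fold change was -0.76 ± 0.12 (adjusted p = 1.84e-05), and an adjusted p of 0.05 was passed in all 19 alternative fits and omissions, with log2 fold changes from -0.91 to -0.69, none beyond -1. *Cry2* (NM_009963, chr2:92243804-92274226, minus strand), the other cryptochrome, was at 78.7, 78.2, 101, 79.2 and 72.1 CPM with CL and 111, 114, 134, 135 and 81.8 CPM with saline. CL replicate 3 and saline replicate 5 made the groups overlap, and the log2 fold change of -0.49 ± 0.12 (adjusted p = 0.00354) also passed in all 19, with values from -0.64 to -0.41. *Per1* was at 21.4, 62.5, 53.5, 30.2 and 24.2 CPM with CL and 68.2, 53.99, 83.9, 64.2 and 46.7 CPM with saline. It fell by 0.74 ± 0.27 (adjusted p = 0.0404), but leaving out HFD saline replicate 1, 3 or 4 or HFD CL replicate 1, 4 or 5 gave adjusted p-values from 0.0627 to 0.137. *Cry1* was at 13.03 ± 3.84 CPM with CL and 9.22 ± 1.96 CPM with saline, a log2 fold change of 0.42 ± 0.19 that did not pass (adjusted p = 0.102). *Dbp*, at 40.02, 58.9, 82.9, 26.1 and 21.1 CPM with CL and 73.8, 98.1, 179.5, 128 and 24.8 CPM with saline, had a log2 fold change of -1.14 ± 0.48 (adjusted p = 0.081). It is one of 4 genes called when only the 10 libraries of the comparison were fitted. The median of the 10 was -0.19, beside -0.01 over all genes. Of 5 tested macrophage markers 2 fell in the same comparison, and their part in these values was not tested. The effect of CL on HFD was not shown to differ from that on chow for any of the 10 genes (0 passed the interaction test, beside 0.0151% of all genes), the nearest being *Nr1d1* with a difference of -0.48 ± 0.17 (unadjusted p = 0.00902, adjusted p = 0.369).

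**Figure D2:**
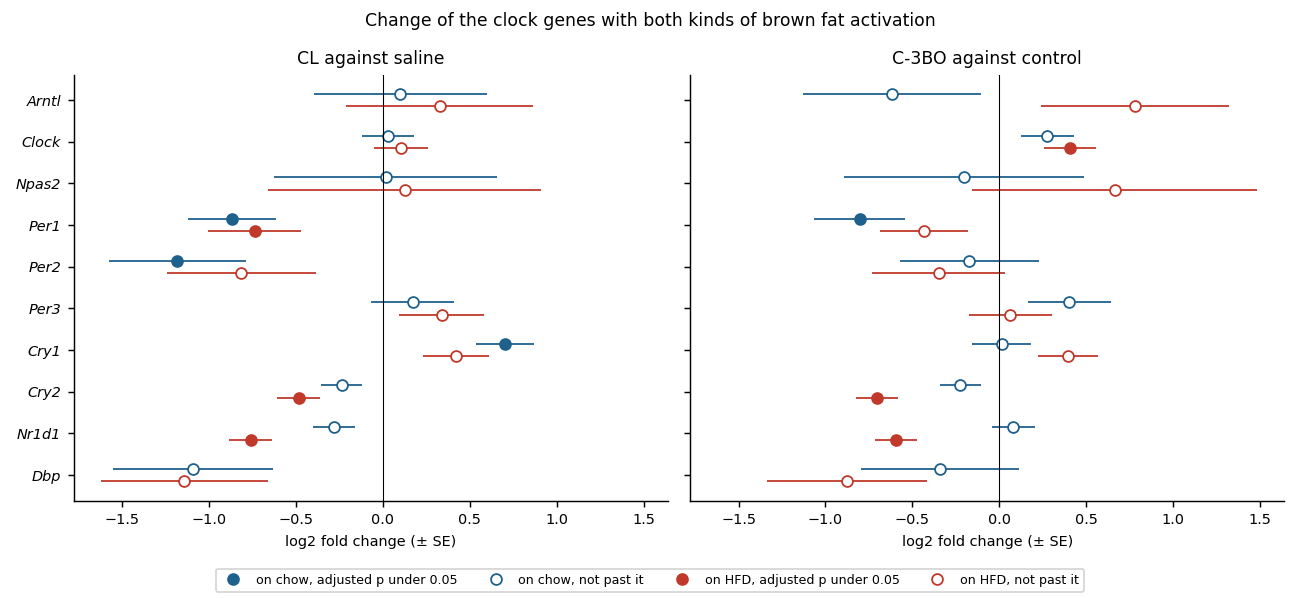
Log2 fold change (± SE) of each clock gene for CL against saline (left) and C-3BO against control mice (right), on chow (blue) and on HFD (red), with filled points where the adjusted p was under 0.05. *Per1*, *Per2*, *Cry2* and *Dbp* lie left of 0 in all 4 comparisons, with *Per1* past the threshold in 3, *Cry2* in 2, *Per2* in 1 and *Dbp* in 0 of them, and *Cry1* is past it only with CL on chow.

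Chow C-3BO mice differed from chow control mice in *Per1* alone among the 10 genes, beside 31.6% of all genes tested. *Per1* was at 27.9, 21.4, 18.6, 21.7 and 39.2 CPM in chow C-3BO replicates 1 to 5 and 70.1, 50.8, 35.1, 33.5 and 33.8 CPM in chow control replicates 1 to 5. It fell by 0.80 ± 0.26 (adjusted p = 0.0172), with C-3BO replicate 5 above 3 of the controls, and the call was lost without chow control replicate 1 (log2 fold change -0.58, adjusted p = 0.0981) or chow C-3BO replicate 3 (-0.67, adjusted p = 0.0651). *Per2* was at 14.01, 7.41, 12.1, 12.2 and 38.2 CPM in chow C-3BO mice, where replicate 5 stood apart, and 31.1, 12.1, 27.1, 11.4 and 11.7 CPM in chow control mice (log2 fold change -0.17 ± 0.40, adjusted p = 0.781). *Clock* (0.28 ± 0.15, adjusted p = 0.158), *Cry2* (-0.22 ± 0.12, adjusted p = 0.154) and *Nr1d1* (0.08 ± 0.12, adjusted p = 0.651) did not pass. The median of the 10 was -0.19, beside -0.03 over all genes.

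On HFD, C-3BO mice had less *Cry2* and *Nr1d1* and more *Clock* than control mice. These 3 of the 10 passed, beside 34.8% of all genes tested. Of the 8 groups, HFD control mice had the highest mean of *Cry2* (123 CPM) and *Nr1d1* (436 CPM) and the lowest of *Clock* (60.8 CPM). *Cry2* was at 78.5, 69.2, 72.8, 70.7 and 88.5 CPM in HFD C-3BO replicates 1 to 5 and 127, 126, 123, 111 and 129 CPM in HFD control replicates 1 to 5, without overlap. The log2 fold change was -0.70 ± 0.12 (adjusted p = 1.8e-05). *Nr1d1* was at 281, 299.9, 288, 242 and 334 CPM in HFD C-3BO mice and 403, 422, 491, 426 and 437 CPM in HFD control mice, again without overlap, with a log2 fold change of -0.59 ± 0.12 (adjusted p = 0.000239). Both passed an adjusted p of 0.05 in all 20 alternative fits and omissions, including the fit without HFD C-3BO replicates 4 and 5. The log2 fold changes there were from -0.87 to -0.67 for *Cry2* and from -0.76 to -0.54 for *Nr1d1*, none beyond -1. All 11 of 11 tested liver markers were higher in HFD C-3BO mice. Their sum was 540 and 535 CPM in replicates 4 and 5, 81.5 to 126 CPM in replicates 1 to 3, and 10.5 to 32.6 CPM in HFD control mice. *Clock* (NM_001289826, chr5:76638893-76733817, minus strand), the histone acetyltransferase partner of BMAL1, was at 70.5, 83.1, 78.6, 97.2 and 74.96 CPM in HFD C-3BO mice and 60.7, 58.9, 69.9, 68.01 and 46.5 CPM in HFD control mice. Each C-3BO mouse was above each control mouse, and the log2 fold change was 0.41 ± 0.15 (adjusted p = 0.034). Its call was lost under 9 of 20 alternative fits and omissions, among them the fit without HFD C-3BO replicates 4 and 5 (0.35, adjusted p = 0.148), scaling by library totals alone (0.24, adjusted p = 0.199), and the fits without HFD C-3BO replicate 2 or 4 or HFD control replicate 1, 2 or 5 (adjusted p from 0.056 to 0.112). When only the 10 libraries of the comparison were fitted, 6 genes passed, with *Per1*, *Cry1* and *Dbp* added. The share of all genes under that fit is not given here. *Dbp* was at 51.4, 41.3, 66.2, 41.8 and 81.5 CPM in HFD C-3BO mice and 76.8, 92.99, 97.5, 74.1 and 177 CPM in HFD control mice (-0.88 ± 0.46, adjusted p = 0.139).

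The effect of C-3BO differed between diets for *Nr1d1*, 1 of the 10 genes, beside 2.09% of all genes tested. Its log2 fold change was 0.08 on chow and -0.59 on HFD, a difference of -0.68 ± 0.17 (adjusted p = 0.027 for the interaction). With HFD against chow, *Nr1d1* rose by 0.49 ± 0.12 in control mice (adjusted p = 0.00204 by edgeR). In C-3BO mice its change with HFD was -0.19 ± 0.12, which did not pass (adjusted p = 0.28). On chow the control mice were spread widely, at 415, 320.3, 208, 327 and 284 CPM, and the C-3BO mice were at 367, 355, 313, 302 and 307 CPM, within that spread. The call was lost with a term for the 12 libraries with *Alb* (adjusted p = 0.0788), without HFD C-3BO replicates 4 and 5 (0.0728), with only the 20 libraries of the cohort (0.0696), and without any one of chow control replicate 3, chow C-3BO replicate 1 or 2, HFD control replicate 3 or HFD C-3BO replicate 4 (0.0533 to 0.0618). In these the difference itself stayed between -0.68 and -0.56. The effects of C-3BO and of CL were compared with each other on each diet, with cohort, age range, injection and genotype differing too. None of the 10 genes passed on chow (0, beside 6.24% of all genes) or on HFD (0, beside 1.8%). The largest difference on chow relative to its error was that of *Cry1*, at -0.69 ± 0.24 (C-3BO minus CL, unadjusted p = 0.00614, adjusted p = 0.0729), from 0.01 with C-3BO and 0.70 with CL.

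Control mice on HFD differed from control mice on chow in 7 of the 10 genes, beside 32.9% of all genes tested, and in the same comparison their muscle transcripts did not overlap. *Arntl* (NM_001243048, chr7:120350979-120457640, plus strand), whose product BMAL1 is the one member without which the clock stops, was at 4.75, 3.02, 3.78, 4.36 and 1.55 CPM on HFD and 4.46, 11.9, 3.47, 11.7 and 16.6 CPM on chow, replicates 1 to 5 in order. It fell by 1.42 ± 0.52 (adjusted p = 0.0313), although chow replicates 1 and 3 lay within the HFD range. *Clock* fell by 0.49 ± 0.15 (adjusted p = 0.0111), from 74.02, 96.6, 62.1, 99.6 and 94.8 CPM on chow. *Npas2*, at 1.22, 0.267, 1.03, 0.296 and 0 CPM on HFD and 0.496, 2.53, 0.560, 3.68 and 2.40 CPM on chow, did not pass (-1.67 ± 0.73, adjusted p = 0.0761). Among the repressors, *Per2* was at 38.6, 40.4, 37.5, 34.97 and 47.7 CPM on HFD and 31.1, 12.1, 27.1, 11.4 and 11.7 CPM on chow, without overlap, and rose by 1.09 ± 0.39 (adjusted p = 0.027). *Per1* rose by 0.68 ± 0.25 (adjusted p = 0.0354), *Cry2* by 0.35 ± 0.12 (adjusted p = 0.0219) and *Nr1d1* by 0.49 ± 0.12 (adjusted p = 0.00204). *Cry1*, at 9.86, 11.6, 8.93, 8.21 and 9.89 CPM on HFD and 12.2, 15.1, 15.3, 10.8 and 15.04 CPM on chow, fell by 0.49 ± 0.17 (adjusted p = 0.0226). *Per3* (0.34 ± 0.24, adjusted p = 0.298) and *Dbp* (0.15 ± 0.45, adjusted p = 0.827) did not pass. The median of the 10 was 0.25, beside 0 over all genes.

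With the mean log2 level of the 8 muscle markers as a covariate, 0 of these 10 genes passed. The log2 fold change then was -1.23 for *Arntl* (adjusted p = 0.342), 1.38 for *Per2* (0.0857), 0.39 for *Nr1d1* (0.13), 0.33 for *Cry2* (0.214), 0.52 for *Per1* (0.366) and -0.39 for *Clock* (0.277), so that these kept their direction with wider errors. That of *Cry1* went to -0.05 (0.922). Because chow control mice and HFD control mice do not overlap in muscle transcripts, diet and muscle content cannot be told apart in this comparison. *Clock* and *Nr1d1* kept their calls whichever library was left out. The count was 4 without chow control replicate 2 or 3 and 3 without chow control replicate 4 or 5 or HFD control replicate 5.

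**Figure D3:**
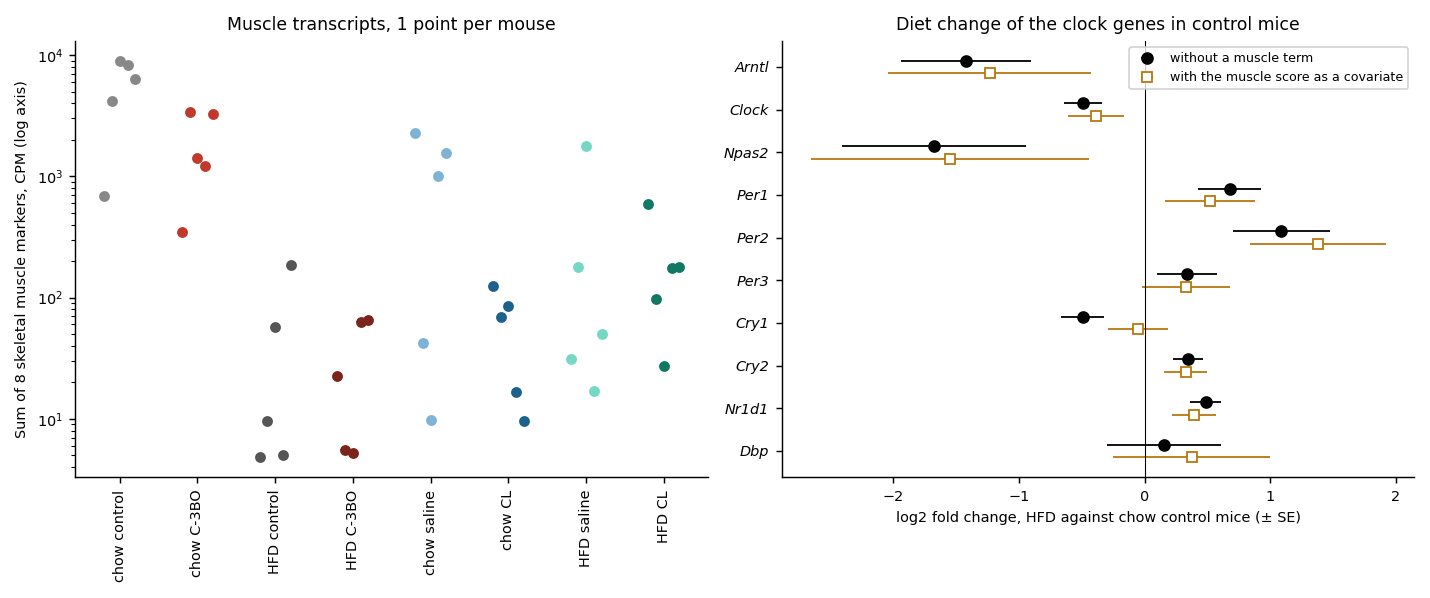
Left, the summed level of 8 skeletal muscle markers in each mouse (CPM, log axis) by group. Right, log2 fold change (± SE) of each clock gene for HFD against chow in control mice, without (black circles) and with (open squares) the muscle score as a covariate. The 5 chow control mice, at 685 to 8997 CPM, are all above the 5 HFD control mice, at 4.82 to 187 CPM, and with the covariate the estimate of *Cry1* moves to near 0 while the errors of the other genes widen.

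C-3BO mice on HFD differed from those on chow in 1 of the 10 genes, beside 25.7% of all genes tested. *Per1* was at 39.8, 50.9, 64.8, 56.4 and 52.6 CPM on HFD and 27.9, 21.4, 18.6, 21.7 and 39.2 CPM on chow, without overlap, and rose by 1.04 ± 0.26 (adjusted p = 0.00328). The muscle markers did not overlap here either, and with their score as a covariate the log2 fold change was 0.92 (adjusted p = 0.0648). *Arntl* was at 5.98, 6.66, 2.45, 9.98 and 6.14 CPM on HFD and 2.71, 10.3, 5.26, 6.86 and 5.73 CPM on chow (-0.02 ± 0.54, adjusted p = 0.986). *Per2*, at 31.4 ± 10.00 CPM on HFD and 16.8 ± 12.2 CPM on chow (0.91 ± 0.40, adjusted p = 0.0928), and *Clock* (-0.36 ± 0.15, adjusted p = 0.078) did not pass. Neither did *Cry2* (-0.13 ± 0.12, adjusted p = 0.46) or *Nr1d1* (-0.19 ± 0.12, adjusted p = 0.28). The count was 2 without chow C-3BO replicate 5, without HFD C-3BO replicate 4, and when only these 10 libraries were fitted.

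Saline mice on HFD differed from those on chow in 0 of the 10 genes in edgeR's test, beside 15.5% of all genes. The lowest adjusted p among the 10 was 0.251, for *Cry1* (-0.32 ± 0.18). No gene of the 10 had an unadjusted p under 0.05. All 5 of 5 tested macrophage markers rose in the same comparison. Their sum was 225 to 598 CPM in HFD saline and 92.6 to 210 CPM in chow saline mice, and their part was not tested. In CL mice, 2 of the 10 passed, beside 23.6% of all genes. *Cry1* was at 11.4, 8.15, 13.7, 13.2 and 18.7 CPM on HFD and 24.4, 19.1, 16.4, 15.6 and 22.96 CPM on chow, and fell by 0.60 ± 0.17 (adjusted p = 0.01). *Nr1d1* was at 328, 341, 355, 306 and 264 CPM on chow and fell by 0.38 ± 0.12 to the HFD values given above (adjusted p = 0.0222). In both injected comparisons all HFD libraries and no chow library belong to the 12 with *Alb*, and with a term for these 12, which rests on HFD C-3BO mice, neither gene passed (adjusted p = 0.29 and 0.408). Neither passed with scaling by library totals alone (adjusted p = 0.0655 and 0.21), the setting under which the median of all genes shifted to 0.16. Without HFD CL replicate 2 the count was 0, and without HFD CL replicate 5 or chow CL replicate 2 or 3 it was 1, since *Nr1d1* was lost.

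The saline mice can also be set beside uninjected control mice, but these come from different cohorts. Injection, breeding, age and time of collection cannot be told apart in this comparison. On chow, 1 of the 10 genes passed, beside 15.2% of all genes: *Per1*, at 112, 85.8, 56.9, 77.00 and 52.9 CPM in chow saline mice and 70.1, 50.8, 35.1, 33.5 and 33.8 CPM in chow control mice, rose by 0.78 ± 0.25 (adjusted p = 0.0309). The call was lost with the muscle covariate (0.71, adjusted p = 0.108), with only these 10 libraries (adjusted p = 0.0644), and without any one of chow control replicates 3, 4 or 5 or chow saline replicates 1 or 2 (0.0578 to 0.11). Of 11 tested immediate early genes that respond to cAMP and other stimuli, 5 rose and 1 fell in the same comparison, *Egr1* by 3.19 ± 0.68, *Fosb* by 2.76 ± 0.71, *Fos* by 2.39 ± 0.73, *Sik1* by 1.97 ± 0.37 and *Junb* by 1.07 ± 0.33 among those that rose. With the muscle covariate, *Fosb* (3.09, adjusted p = 0.0126) and *Sik1* (1.87, adjusted p = 0.00358) passed and *Egr1* (1.91, adjusted p = 0.16), *Fos* (1.07, adjusted p = 0.522) and *Junb* (0.46, adjusted p = 0.479) did not. Their direction beside that of *Per1* varied between comparisons. *Per1* fell with CL on chow, where 3 of the 11 fell and 0 rose. It also fell with C-3BO on chow, where 2 fell and 1, *Sik1*, rose by 2.09 ± 0.37. With HFD in saline mice 6 of the 11 fell while *Per1* was at -0.28 (adjusted p = 0.508 by edgeR). A common cause was not tested. Of 10 glucocorticoid-responsive genes 5 rose, *Mt2*, a metallothionein, by 1.05 ± 0.28. On HFD, 0 of the 10 clock genes passed in edgeR's test, beside 7.52% of all genes. There the unadjusted p was under 0.05 for *Arntl* (1.21 ± 0.55, adjusted p = 0.181) and *Per3* (-0.55 ± 0.24, adjusted p = 0.176), and the saline mice all belong to the 12 libraries with *Alb* while the control mice do not. All 5 of 5 tested macrophage markers were higher in HFD saline than in HFD control mice, and their part was not tested.

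Within groups, the clock genes differed in how much they varied from mouse to mouse. The SD of log2 CPM among mice of the same group, pooled over the 8 groups, was 1.22 for *Npas2*, 0.90 for *Arntl*, 0.84 for *Dbp* and 0.70 for *Per2*, against a median of 0.25 over the 13277 genes tested. These lay at percentiles 99.3, 97.5, 96.5 and 91.3 of all genes. *Per1* (0.43), *Per3* (0.43), *Cry1* (0.29) and *Clock* (0.27) followed, at percentiles 76.04, 75.4, 59.3 and 55.9, and *Cry2* and *Nr1d1* (0.20 each) were at percentiles 31.9 and 33.6. Among the 500 genes nearest in level, where spread from low counts is alike, the percentiles were higher for these 6, at 98.2 for *Per1*, 98.0 for *Per3*, 62.9 for *Cry1*, 92.2 for *Clock*, 70.3 for *Cry2* and 64.7 for *Nr1d1*. Those of *Npas2*, *Arntl*, *Dbp* and *Per2* were 97.6, 98.6, 100 and 99.0. *Npas2* had 625 counts in all 40 libraries together, against 27601 for *Clock*.

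Mice with much *Arntl* had little *Dbp*. In chow saline mice *Arntl* was at 18.3, 3.68, 8.23, 2.13 and 5.78 CPM and *Dbp* at 29.6, 144, 105, 153 and 102 CPM in replicates 1 to 5, so that replicate 1 was highest for the first and lowest for the second. In HFD saline mice *Arntl* was at 9.09, 2.36, 2.30, 8.02 and 19.8 CPM, with replicate 5 highest, and *Dbp* was lowest in the same replicate, as listed above. In chow CL mice *Arntl* was at 13.6, 4.03, 3.05, 7.28 and 12.6 CPM, with replicates 1 and 5 highest, and these held the least *Dbp*. In HFD CL mice it was at 10.4, 7.13, 4.94, 12.05 and 16.7 CPM and *Dbp* was lowest in replicate 5, the mouse with most *Arntl*. Chow control replicate 5 also had most *Arntl* and least *Dbp* of its group. In the other groups these were different mice. Most *Arntl* and least *Dbp* were in replicates 2 and 4 of chow C-3BO, 1 and 4 of HFD control, and 4 and 2 of HFD C-3BO. The log2 difference of *Arntl* from *Dbp* spanned 5.83 in HFD saline mice, 5.34 in chow saline mice, 4.36 in chow CL mice and 3.86 in chow control mice, and least, 2.59, in HFD C-3BO mice.

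Over all 40 mice, with each value taken as its deviation from the group mean, *Arntl* was compared with the other 9 genes, each by Pearson's r and Spearman's rho and a two-sided permutation test within groups (100000 permutations, Benjamini-Hochberg adjustment over 9). *Dbp* gave r = -0.86 and rho = -0.86, *Per3* r = -0.79 and rho = -0.82, and *Per2* r = -0.73 and rho = -0.78, each with an unadjusted permutation p of 1e-05, the smallest this number of permutations can give, and an adjusted p of 3e-05. The activators went with *Arntl*: *Npas2* gave r = 0.63 (permutation p = 8e-05, adjusted 0.00018) and rho = 0.66 (p = 2e-05), and *Clock* r = 0.61 (p = 0.00069, adjusted 0.00124) and rho = 0.70 (p = 3e-05). The other 4 relations did not pass.

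*Cry2* gave r = -0.35 and rho = -0.30 (permutation p = 0.0697 and 0.0971), *Per1* r = -0.27 and rho = -0.26 (0.109 and 0.132), *Nr1d1* r = -0.25 and rho = -0.27 (0.181 and 0.142), and *Cry1* r = 0.13 and rho = 0.12 (0.489 and 0.52), with adjusted p-values for r of 0.105, 0.14, 0.204 and 0.489. Without the 2 mice farthest from the median of *Arntl*, HFD saline replicate 5 and chow saline replicate 4, r was -0.83 for *Dbp*, -0.74 for *Per3*, -0.70 for *Per2*, 0.58 for *Npas2* and 0.57 for *Clock*, each still past the threshold. Within the 28 libraries without *Alb*, r was -0.89 for *Dbp*, -0.72 for *Per3*, -0.70 for *Per2*, 0.68 for *Npas2* and 0.76 for *Clock*. Within the 12 with *Alb* it was -0.85, -0.92, -0.86, 0.73 and 0.43, of which that of *Clock* did not pass (permutation p = 0.332), while *Cry2* passed by r (-0.73, permutation p = 0.0212, adjusted 0.0382) and not by rho (-0.57, permutation p = 0.0671, adjusted 0.101). With the muscle score regressed out of both genes, r was -0.86 for *Dbp*, -0.79 for *Per3*, -0.73 for *Per2*, 0.63 for *Npas2* and 0.62 for *Clock*. The hour of sampling was not tested, since no source used here gives it.

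**Figure D4:**
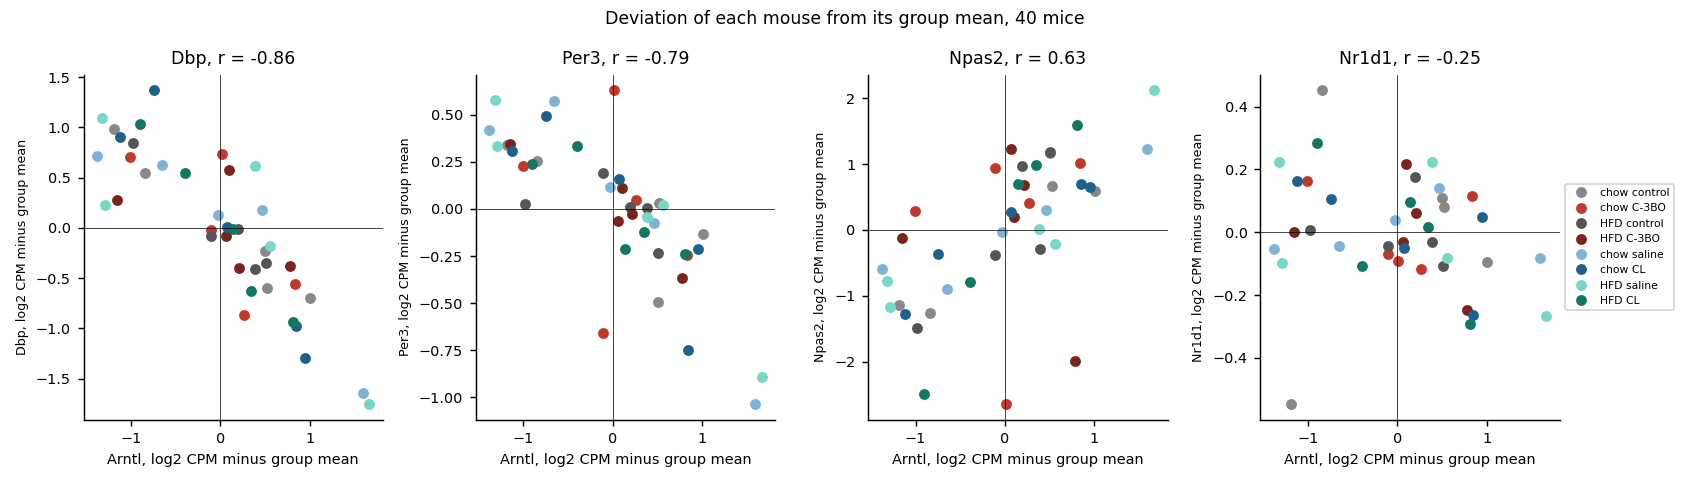
Log2 CPM of *Dbp*, *Per3*, *Npas2* and *Nr1d1* (vertical axes) against that of *Arntl* (horizontal axes), each as the deviation of a mouse from its group mean, with 1 point for each of 40 mice, colored by group. Points fall along a descending line for *Dbp* (r = -0.86) and *Per3* (r = -0.79), an ascending one for *Npas2* (r = 0.63), and neither for *Nr1d1* (r = -0.25).

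Among 12527 genes with a mean of at least 1 CPM, those whose deviations were most like those of *Dbp* over the 40 mice were *Bhlhe41* (r = 0.92), *Tef* (r = 0.90), *Nr1d2* (r = 0.80), the sister gene of *Nr1d1*, *Angptl2* (r = 0.77) and *Hlf* (r = 0.76), the third PAR bZIP gene beside *Dbp* and *Tef*. Most opposite to *Dbp* were *Ankrd50* (r = -0.87), *Iffo2* (r = -0.82), *Dtx4* (r = -0.82), *Dapk1* (r = -0.78) and *Klhl25* (r = -0.75). The genes most like *Arntl* were *Ankrd50* (r = 0.79), *Iffo2* (r = 0.78), *Dapk1* (r = 0.78), *Dtx4* (r = 0.76) and 2810021J22Rik (r = 0.70), and most opposite to it were *Tef* (r = -0.83), *Bhlhe41* (r = -0.81), *Hlf* (r = -0.67), *Tdrp* (r = -0.65) and *Angptl2* (r = -0.65). These values are descriptions over the same libraries, with the same depth and tissue makeup in all genes of a mouse.

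Of 18 other clock genes tested, 1 passed with CL on chow, 2 with CL on HFD, 6 with C-3BO on chow and 3 with C-3BO on HFD, and for HFD against chow 6 passed in control mice, 9 in C-3BO mice, 6 in saline mice and 6 in CL mice. The shares of all genes in these 8 comparisons, in the same order, were 15.3%, 23.5%, 31.6%, 34.8%, 32.9%, 25.7%, 15.5% and 23.6%. *Hlf* rose with HFD by 1.07 ± 0.24 in control mice, and its log2 fold change was 1.05 with the muscle covariate (adjusted p = 0.0377). *Nfil3*, which competes with DBP for D-boxes, rose by 1.08 ± 0.30 with HFD in C-3BO mice. *Fbxl21* and *Rorb*, both with group means under 3 CPM, also passed with a log2 fold change beyond 1. *Fbxl21*, an F-box protein that acts on cryptochromes, rose by 1.88 ± 0.60 with CL on HFD and by 1.45 ± 0.48 with C-3BO on chow, and fell by 1.43 ± 0.50 with HFD in C-3BO mice. *Rorb* fell by 1.75 ± 0.45 with C-3BO on chow and rose by 2.66 ± 0.44 with HFD in C-3BO mice, and the effect of C-3BO on it differed between the diets by 2.12 ± 0.57 (adjusted p = 0.0369). *Cipc*, a CLOCK-interacting repressor singled out after its values were seen, rose in all 4 activation comparisons, by 0.43 ± 0.09 and 0.62 ± 0.10 with CL and by 0.65 ± 0.10 and 0.73 ± 0.10 with C-3BO, on chow and HFD. Of 7 tested clock-controlled output genes, 2, 3, 2 and 2 passed with CL on chow, CL on HFD, C-3BO on chow and C-3BO on HFD, beside 15.3%, 23.5%, 31.6% and 34.8% of all genes. *Ccrn4l*, which encodes nocturnin, rose by 2.79 ± 0.43 with C-3BO on chow, by 3.14 ± 0.42 with C-3BO on HFD and by 2.20 ± 0.43 with CL on HFD, and was at 0.31 ± 0.40 with CL on chow (adjusted p = 0.663). It also rose by 1.37 ± 0.43 in saline against control mice on chow, and with HFD by 1.32 ± 0.39 in C-3BO mice and 1.56 ± 0.40 in CL mice. The effect of C-3BO less that of CL was 2.48 ± 0.58 for *Ccrn4l* on chow and -1.18 ± 0.32 on HFD for *Wee1*, a cell cycle kinase under clock control, both past the threshold. *Nampt*, the rate-limiting enzyme of NAD salvage, rose by 0.51 ± 0.12 and 0.69 ± 0.12 with CL on chow and HFD and by 0.52 ± 0.12 with C-3BO on HFD, and was at -0.01 ± 0.12 with C-3BO on chow (adjusted p = 0.977). It fell by 0.52 ± 0.12 with HFD in control mice (adjusted p = 0.0011 by edgeR), from a mean of 453 to 316 CPM. The C-3BO means were 451 CPM on chow and 454 CPM on HFD.

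Of the 11 immediate early genes, 3, 1, 3 and 1 passed in the same 4 comparisons, beside 15.3%, 23.5%, 31.6% and 34.8% of all genes. *Nr4a1*, an orphan nuclear receptor, fell in each, with log2 fold changes of -2.28 ± 0.49 and -2.80 ± 0.56 with CL on chow and HFD and of -3.63 ± 0.55 and -2.98 ± 0.56 with C-3BO on chow and HFD. With CL on chow *Atf3* fell by 1.58 ± 0.46 and *Sik1* by 1.13 ± 0.36, and with C-3BO on chow *Atf3* fell by 1.41 ± 0.52. The effect of C-3BO less that of CL on chow was 3.22 ± 0.52 for *Sik1*. With HFD in saline mice the 6 that fell were *Fosb* (-3.32 ± 0.83), *Egr1* (-2.83 ± 0.69), *Nr4a1* (-1.72 ± 0.49), *Sik1* (-1.54 ± 0.39), *Nr4a2* (-1.32 ± 0.25) and *Junb* (-1.14 ± 0.35). With HFD in CL mice the 4 were *Fos* (-3.78 ± 0.87), *Nr4a1* (-2.24 ± 0.55), *Egr1* (-2.16 ± 0.68) and *Junb* (-1.02 ± 0.35), and in C-3BO mice *Dusp1* rose by 1.10 ± 0.38. In the injected mice diet and the 12 libraries with *Alb* coincide.

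Of the 10 glucocorticoid-responsive genes, 0, 2, 3 and 2 passed in the 4 activation comparisons, beside the same shares of all genes. *Pdk4*, a kinase that restrains glucose oxidation, rose by 1.28 ± 0.30 with C-3BO on chow, and its C-3BO effect exceeded that of CL on chow by 1.38 ± 0.41. With C-3BO on chow 2 genes of this list fell, *Fkbp5* by 0.80 ± 0.29 and *Tsc22d3* by 0.66 ± 0.11 (adjusted p = 0.0297 and 3.01e-05 by edgeR). *Cdkn1a*, a cell cycle inhibitor, rose by 1.25 ± 0.31 with C-3BO on HFD, where *Tsc22d3* fell by 0.37 ± 0.11 (adjusted p = 0.00909 by edgeR). *Mt2* fell by 1.15 ± 0.32 with CL on HFD. With HFD, *Mt2* fell by 1.40 ± 0.30 in C-3BO mice and 1.37 ± 0.31 in CL mice, and *Sgk1* rose by 1.32 ± 0.25 in C-3BO mice.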

How the data were processed

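BAT RNA of 40 mice was sequenced as poly(A) libraries. The authors aligned reads with STAR to mm9 and counted exon reads per gene with HOMER and iRNA-seq, and the deposited values used here are these whole-number counts, with no normalization. Tool versions and the use of strand are not given in the sources used here. Each of the 40 columns was matched to a sample by its name, 0 further columns of samples were left unused, and all pairs of replicates differed by more than sampling noise. The members and all gene lists were chosen with earlier results of these data known. Counts were filtered with filterByExpr (minimum count 10) in edgeR 4.0.16 (R 4.3.3, limma 3.58.1), scaled by TMM, and fitted by group over all 40 libraries. Quasi-likelihood tests were adjusted by Benjamini-Hochberg over 13277 genes, with a threshold of 0.05. The labels number the replicates without naming animals. The methods count n as animals in each group for animal studies, and each library is taken here as 1 mouse. The p-values measure only the spread between these samples, part of which may be technical. CPM are counts relative to the TMM-scaled library total, and log2 CPM used a prior count of 2. A count of 0 allows up to 3 counts, which covers counting error only. Genes outside the 10 were named when they passed the threshold with a log2 fold change beyond 1, at most 6 a list, or by the 5 highest and 5 lowest correlations with *Arntl* or *Dbp* among genes with a mean of at least 1 CPM. One of the genes this rule names is not reported here. *Cipc*, *Nampt*, *Fkbp5* and *Tsc22d3* were named after their values were seen. Alternatives were library totals, other filters, DESeq2 1.42.0, terms for replicate number and for the 12 libraries with *Alb*, omission of each library, and only the compared libraries. The muscle covariate was added after seeing the data. Correlations used scipy 1.17.1. The scripts were tested on simulated data. Same-numbered mice did not deviate together (in no comparison did all 5 pairs correlate above 0.1), so the replicate number was not used in the reported fit.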

Additional observations from a re-analysis of the deposited data

Results flagged for a closer look

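In 6 of the 80 combinations of gene and group, 1 mouse stood apart from the other 4, by a gap that took up more of the group's range than Dixon's critical value of 0.71. Chance gives about 1 such case in 20 groups. *Clock* was at 101.5 CPM in 1 chow saline mouse against at most 72.6 CPM in the others (ratio of gap to range 0.791), and at 54.7 CPM in 1 HFD CL mouse against at least 78.9 CPM in the others (0.797). *Npas2* was at 5.08 CPM in 1 HFD saline mouse, replicate 5, against at most 1.00 CPM in the others (0.856). *Per2* was at 38.2 CPM in chow C-3BO replicate 5 against at most 14.0 CPM in the others (0.786). *Cry2* was at 100.9 CPM in HFD CL replicate 3 against at most 79.2 CPM in the others (0.754). *Dbp* was at 176.8 CPM in HFD control replicate 5 against at most 97.5 CPM in the others (0.772), and the same mouse had the lowest *Arntl* of all 40, at 1.55 CPM.

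The change of *Nr1d1* with C-3BO differed between the diets by -0.68 on the log2 scale (HFD minus chow), by the interaction test given above.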

How the results depend on the processing

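*Cry1* with CL on chow, *Cry2* and *Nr1d1* with CL on HFD, and *Cry2* and *Nr1d1* with C-3BO on HFD kept their direction and an adjusted p under 0.05 in every alternative fit and omission that gave a value, but none had a log2 fold change beyond 1. Counts of the 10 genes that moved by more than 1.5 times are given next, and the causes were not tested. The share of all genes under each alternative is not set beside them. They therefore do not show whether these genes or all genes moved. With library totals they were 5 for CL on chow, 2 for C-3BO on chow, 2, 1 and 0 for HFD in C-3BO, saline and CL mice, 2 for saline against control mice on chow, and 1 for C-3BO minus CL on chow. With at least 10 counts in every library, which drops genes, they were 2 and 1 for HFD in C-3BO and CL mice. With the term for the 12 libraries they were 0 for HFD in CL mice and 0 for the C-3BO interaction, also 0 without HFD C-3BO replicates 4 and 5. With the muscle covariate they were 0 for HFD in control and C-3BO mice and for saline on chow, and 1 for C-3BO minus CL on chow. A log2 fold change beyond 1 left 1 for CL on chow, 2 for HFD in control mice, and 0 for CL on HFD, C-3BO on either diet, HFD in CL mice, saline on chow and the C-3BO interaction. With only the compared libraries they were 6 for C-3BO on HFD, 2 for HFD in C-3BO mice, and 0 for saline on chow and the C-3BO interaction.

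Leaving out each library gave 1 to 4 for CL on chow, 2 to 4 for CL on HFD, 0 to 1 for C-3BO on chow, 2 to 3 for C-3BO on HFD, 3 to 8, 1 to 2 and 0 to 2 for HFD in control, C-3BO and CL mice, 0 to 2 for saline on chow and 0 to 1 for the C-3BO interaction. The replicate block gave 3 genes for CL on chow and changed the count in none of the 14 comparisons. Within the 12 libraries with *Alb*, r with *Arntl* was 0.43 for *Clock*, -0.01 for *Cry1* (-0.0137, opposite in sign) and -0.73 for *Cry2*. HFD saline replicate 4, at 849126 counts, limits low genes most, with 8 counts of *Arntl* and 6 of *Cry1*.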
